A study of Mus musculus with 22 samples.

Results

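The DEAD and DEAH box RNA helicases were taken as every gene of the deposited table whose symbol is Ddx or Dhx, then a number, then at most 1 letter. This rule, which used no measured value, found 53 of 55335 genes, 37 named Ddx and 16 named Dhx. The antisense gene Dhx58os fell outside it. The table gives RNA-seq values of polyA RNA from B6D2F1 mouse embryos, in 22 Smart-seq2 libraries of 15 embryos each. KD embryos had been injected at pronuclear stage 3 with about 10 pL of a 20 µM mix of siRNAs against H2A.Z. They were cultured and collected as 2-cell embryos (43 to 44 h after hCG, 3 libraries), morulae (78 h, 3 libraries) or blastocysts (94 h, 4 libraries). Control embryos gave 4 libraries at each stage, and what was injected into the controls of these libraries is not stated. The study's methods speak of 3 or more repeats of its experiments in general, but do not state that the replicates of these libraries come from separate collections of embryos, so each p-value measures the spread between these samples.

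DEAD and DEAH box proteins bind RNA and use ATP to unwind it, to remodel it or to move proteins off it. Their members act at nearly every step of the life of an RNA, from the processing of ribosomal RNA precursors and splicing to export, translation and decay. In the early embryo, maternal RNAs are degraded while the embryonic genome is switched on, and the need for new ribosomes and for splicing grows with it.

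Values are FPKM, which the authors normalized for gene length and for the mapped fragments of the library, and are listed by library in the order of the replicate numbers (1, 2, 4 and 5 for control and 1, 2 and 4 for KD 2-cell embryos; 1, 2, 7 and 8 and then 1, 2 and 6 for morulae; 1, 4, 5 and 6 for both kinds of blastocyst). Fold changes are differences on the scale of log2(FPKM + 1) after scaling between libraries, so those of genes with a low FPKM are understated. "Called" means an adjusted p under 0.05 in limma, and a DEG also had an absolute log2 fold change above 1. A signed value alone in parentheses after a gene is its log2 fold change, and a pair of values is the log2 fold change and the adjusted p. Calls lost when a library was left out, when no filter on low FPKM was set, or when the replicate number was added to the fit as a block are given with the adjusted p found then. FPKM do not show how many reads lie behind a value, so the depth is unknown. Between 10143 and 12090 genes had an FPKM of at least 1 in a library.

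The stage labels were checked against marker genes. The 5 genes of the 2-cell stage summed to 226, 242, 203 and 168 FPKM in control 2-cell embryos, with Zfp352 the most abundant, and to at most 6.03 in control morulae and 0.964 in control blastocysts. The 8 trophectoderm markers, led by Krt18, summed to 2456, 2611, 2094 and 1783 in control blastocysts and to between 110 and 147 in control morulae. The 9 cumulus cell markers summed to at most 3.69 and 6 sperm markers to at most 1.77 in any library, with Ptx3 and Fshr of the cumulus cells at 0 in all of them. The 8 oocyte markers, led by Oosp1, were at 1020, 925, 853 and 766 in control 2-cell embryos and at most 11.6 in later libraries. Control 2-cell libraries 4 and 5 stood apart from 1 and 2. Across genes, which are not independent replicates, the correlation of log2 values was 0.981 between 4 and 5 and 0.979 between 1 and 2, but 0.966 to 0.969 across these pairs.

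H2afz, the gene encoding H2A.Z.1, was at 415, 139 and 112 FPKM in KD 2-cell libraries, against 905 to 1244 in the controls. It was at 30.3, 25.7 and 29.0 in KD morulae and 64.2, 67.2, 53.2 and 57.6 in KD blastocysts, against 1158 to 1511 and 1945 to 2656 in their controls. The log2 fold change was -2.53 in 2-cell embryos (limma adjusted p = 0.544, not called), -5.41 in morulae (9.72e-08) and -5.19 in blastocysts (3.63e-08). H2afv, the gene of the second form of H2A.Z, had values of -0.23, -2.94 and -1.86, and was called at the later stages.

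Most of the helicases were expressed throughout. Of the 53, 35 had an FPKM of at least 1 in all 22 libraries and 50 in at least 1 library, while Dhx58, Dhx34 and Ddx25 stayed under 1 in all. None was at 0 throughout, against 13853 of the 55335 genes of the table, which also holds noncoding genes such as Dhx58os. A control mean of at least 1 was reached by 46, 46 and 40 members in 2-cell embryos, morulae and blastocysts. Of all genes, 11859, 10742 and 11048 did so. Ddx39, an mRNA export helicase, had the highest mean over the control libraries of all 3 stages (310 FPKM). Ddx5, a co-regulator of transcription that also acts in microRNA processing, followed at 233, then Ddx3x (71.5), which helps translation to start on structured mRNAs. The nucleolar helicases Ddx56 (65.4) and Ddx18 (62.2) came next, and these 3 means lay close together. The order of the means changed with the stage. In control morulae the mean of Ddx5 was 353 and that of Ddx39 332, but their order differed between libraries. Ddx39 was at 218, 159, 451 and 502 there, and Ddx5 at 343, 329, 373 and 368. Ddx3x had means of 111, 74.2 and 29.6 in control 2-cell embryos, morulae and blastocysts. In the blastocysts it lay below Ddx39, Ddx5, Dhx16 (106), Ddx56 (72.8), Ddx39b (67.6), Ddx47 (58.4), Ddx18 (53.2), Ddx1 (36.0) and Ddx52 (32.4). At the low end of the detected members were the splicing helicases Ddx23 (0.965 to 1.25 in control morulae) and Dhx35 (0.820 to 1.56). Ddx11, a DNA helicase by homology, stood at 0.716 to 1.2 in control 2-cell embryos, and the RNA sensors Ddx58 and Ddx60 at 0.447 to 1.32 and 1.27 to 2.1. The highest control mean, in FPKM as deposited, fell in 2-cell embryos for 26 of the 50 members, in morulae for 18 and in blastocysts for 6. This split was not taken for all genes, so nothing particular to the helicases can be read from it.

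**Figure D1:**
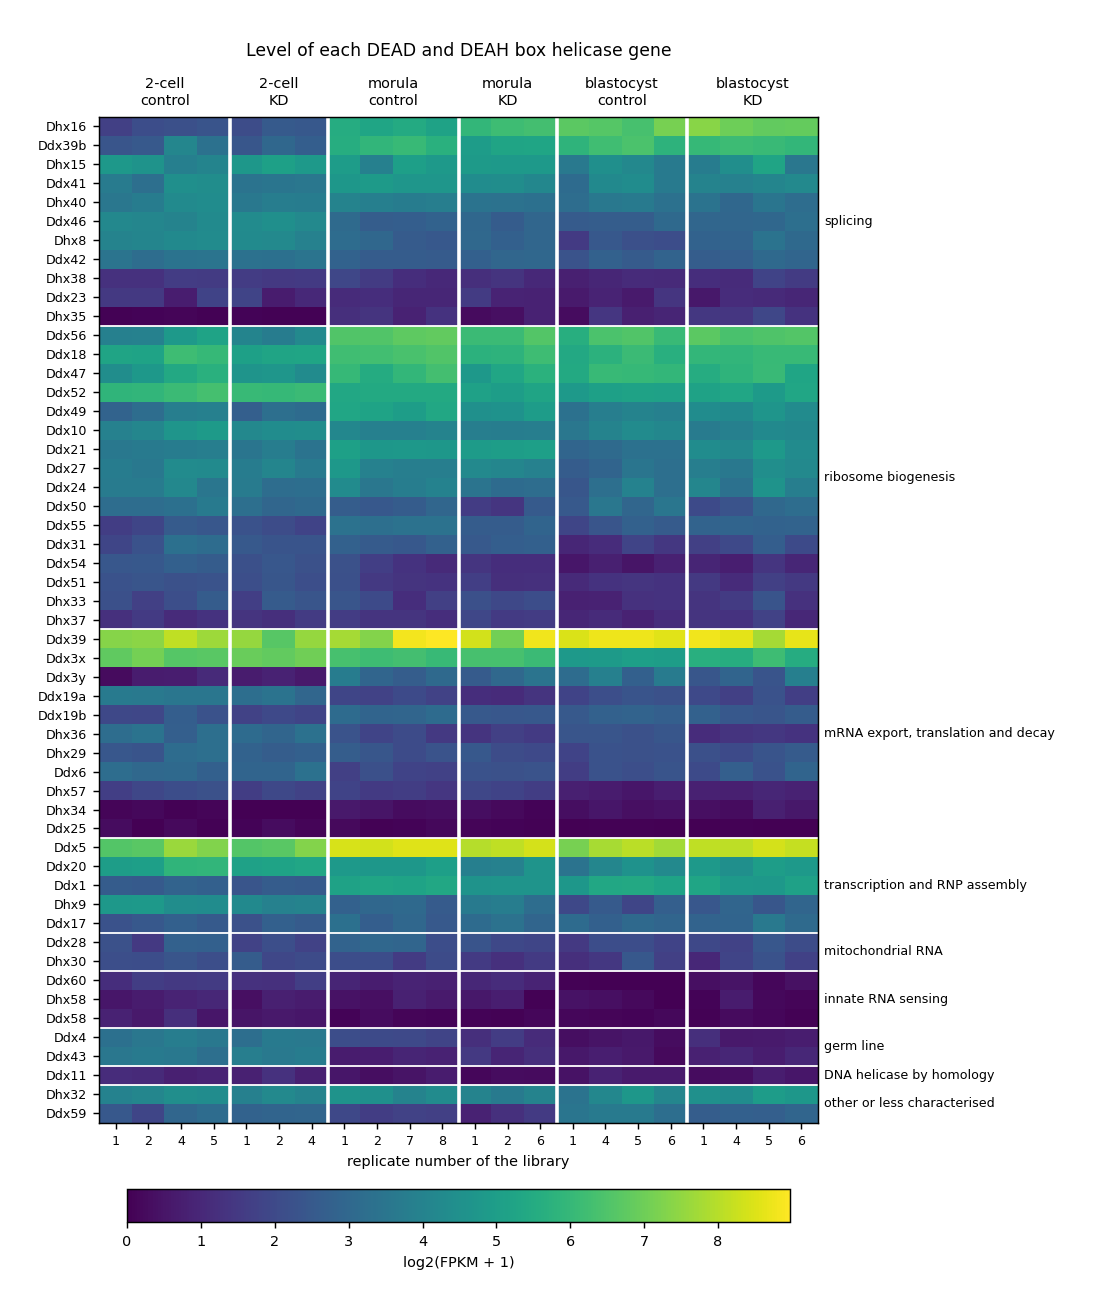
Level of each of the 53 helicases (vertical axis, grouped by role) in each of the 22 libraries (horizontal axis, grouped by stage and treatment), as log2(FPKM + 1) by colour. Ddx39 and Ddx5 are high in all libraries, and Dhx58, Dhx34 and Ddx25 are under 1 FPKM in all.

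All 53 members are protein coding and matched the reference annotation (GRCm38) with the same identifier version. Chromosome 11 holds 8 of them and chromosome 8 holds 7. Ddx21 (ENSMUSG00000020075.8) lies at chr10:62580251-62602281, Dhx36 (ENSMUSG00000027770.5) at chr3:62468013-62507004 and Dhx16 (ENSMUSG00000024422.14) at chr17:35879819-35892670. Some of their reads cannot be assigned with certainty. Of the 100-base stretches of Ddx18, 34.6% also occur in other genes, most of them in Gm16433, and Ddx19a and Ddx19b share 19.3% and 8.57% of their stretches. In Ddx49, 29.8% of the exon bases overlap Homer3 on the opposite strand, and 17.4% in Ddx41 (Gm46416), 17.4% in Ddx39 (Adgre5), 15.9% in Ddx43 (4930542C12Rik) and 14.2% in Ddx54 (Gm43579) also overlap another gene there.

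The first comparison asked how the helicases move in normal development, from control 2-cell embryos to control morulae. Of 48 members tested, 14 rose (29.2%) and 18 fell (37.5%), where 43% of the 13655 genes tested rose and 40.3% fell. DEGs made up 10 and 8 of them, against 32.3% and 30.3% of all genes. Both shares of calls were below those of all genes, and the median log2 fold change was -0.07 against 0.10. Stage and library preparation cannot be told apart.

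Splicing helicases split in direction, with 4 of 11 tested higher (36.4%, against 43% of all genes) and 3 lower (27.3%, against 40.3%). Dhx16, the counterpart of yeast Prp2 that acts before the first step of splicing, was at 2.25, 3.32, 3.55 and 3.99 in 2-cell libraries and 45.7, 37.5, 43.5 and 35.1 in morulae. All morula values lay far above all 2-cell values, the largest rise among the members on the log2(FPKM + 1) scale (log2 fold change 3.28, SE 0.16, limma adjusted p = 3.98e-09). Ddx39b (UAP56), which acts in spliceosome assembly and mRNA export, went from 4.13, 4.70, 16.4 and 9.21 to 47.0, 59.3, 65.8 and 51.2 (log2 fold change 2.73, adjusted p = 4.80e-06). In 2-cell embryos its values were highest in control libraries 4 and 5. Dhx35 rose from 0.0404, 0.0583, 0.0845 and 0.0365 to 1.29, 1.56, 0.820 and 1.47 (1.10). Dhx35 and Ddx3y passed the filter through the morulae, and Ddx43 and Ddx60 through the 2-cell embryos, since the other stage had fewer than 3 libraries at 1 FPKM. Their place in the counts follows in part from the filter. Ddx41 rose by 0.80. Dhx8, the counterpart of yeast Prp22 that releases the spliced mRNA, fell from 15.2, 15.9, 18.3 and 19.1 to 8.03, 7.03, 4.97 and 4.58 (log2 fold change -1.37).

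Among 16 helicases of ribosome biogenesis, 6 rose (37.5%, against 43% of all genes tested) and 4 fell (25%, against 40.3%). Ddx56 was at 13.9, 14.3, 27.3 and 36.3 in 2-cell embryos and 91.7, 91.6, 107 and 112 in morulae (log2 fold change 2.19, adjusted p = 7.49e-06). Ddx49 (log2 fold change 1.77), Ddx55 (1.23), Ddx21 (1.11), Ddx47 (0.87) and Ddx18 (0.70) were the other 5 that rose. These are nucleolar proteins, and Ddx21 also acts in transcription by RNA polymerase I. Ddx50, the close relative of Ddx21, fell by 0.68.

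Both germ line helicases fell, as did 40.3% of all genes tested. Ddx43 was at 10.8, 12.0, 11.2 and 8.77 in 2-cell embryos and under 1 in all morula libraries, 0.618, 0.647, 0.922 and 0.833 (log2 fold change -2.73, adjusted p = 2.44e-08). Ddx4, the mouse Vasa protein of germ cells, fell from 8.98, 10.9, 13.0 and 11.1 to 3.36, 3.02, 2.93 and 2.59 (log2 fold change -1.59). In the group of mRNA export, translation and decay, 2 of 9 rose (22.2%, against 43% of all genes) and 5 fell (55.6%, against 40.3%). Ddx3y, the Y-linked relative of Ddx3x, was at 0.186, 0.604, 0.651 and 1.11 and then 12.5, 6.55, 5.21 and 7.49 (log2 fold change 2.42), while Ddx3x fell by 0.57. Ddx19a, an mRNA export helicase, fell by 1.73 and Dhx36, which unwinds G-quadruplexes in RNA, by 1.25.

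Of the 5 members that act in transcription and RNP assembly, 2 rose and 2 fell (40% each, against 43% and 40.3% of all genes tested). Ddx1, part of the tRNA ligase complex, was at 5.15, 4.80, 6.22 and 5.80 and then 35.4, 38.1, 35.7 and 40.5 (log2 fold change 2.56, adjusted p = 2.01e-08). Ddx5 rose by 1.42, and Dhx9, which binds double-stranded RNA, fell by 1.73. Ddx20 (Gemin3 of the SMN complex, which assembles spliceosomal snRNPs) fell by 0.62, and was not called without morula control 1 (adjusted p = 0.0527) or morula control 2 (0.0601). Nor was it called with the replicate block (log2 fold change -0.41, adjusted p = 0.110) or without 2-cell controls 4 and 5 together (log2 fold change -0.32, adjusted p = 0.153). Dhx57, counted above among the falls of export, translation and decay, was not called without 2-cell control 5 (adjusted p = 0.0686), morula control 2 (0.104), morula control 7 (0.0557) or morula control 8 (0.0985), with the replicate block (adjusted p = 0.320) or without 2-cell controls 4 and 5 together (adjusted p = 0.144). Of the remaining groups, Ddx60 among the RNA sensors fell by 0.62 and Ddx59 by 0.86. With the replicate block Ddx59 was not called (log2 fold change -0.52, adjusted p = 0.0753). Neither of the 2 helicases of mitochondrial RNA was called, with 0 at an unadjusted p under 0.05 in limma.

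From control morulae to control blastocysts the helicases moved mostly downwards. Of 46 members tested, 2 rose (4.35%) and 25 fell (54.3%), where 27.6% of the 11849 genes tested rose and 28.8% fell. DEGs made up 2 and 8 of them, against 13.4% and 12.9% of all genes. The median log2 fold change of the members was -0.43 against -0.03. The number that fell was 21 to 24 with 1 library left out, 21 with no filter and 21 with FPKM as deposited. Of the 25, Ddx4, Ddx54, Dhx33, Dhx37, Dhx38 and Dhx57 passed the filter through the morulae, so the share that fell follows in part from the filter. This comparison shares the control morulae with the one before it.

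Ribosome biogenesis held 12 of the 25 that fell, out of 16 tested (75%, against 28.8% of all genes tested), with a median of -0.75. Of the 12, Ddx54, Dhx33 and Dhx37 passed the filter through the morulae, with fewer than 3 blastocyst libraries at 1 FPKM, so their place in this count follows in part from the filter. Ddx21 was at 33.4, 25.7, 26.8 and 25.7 in control morulae and 6.52, 7.58, 9.14 and 9.24 in control blastocysts. No blastocyst value came near a morula value (log2 fold change -1.75, SE 0.14, adjusted p = 1.29e-06). Ddx49, the counterpart of yeast Dbp8 in the making of the small subunit, went from 38.8, 35.7, 31.2 and 40.2 to 9.18, 13.2, 15.2 and 13.8 (log2 fold change -1.54), and Ddx31 from 5.91, 4.91, 4.58 and 5.97 to 0.938, 1.18, 2.57 and 1.72 (-1.39). Smaller falls were those of Ddx27 (-1.13), Ddx55 (-1.04), Ddx18 (-0.71), Ddx24 (-0.78) and Ddx56 (-0.58). Ddx24 was not called without morula control 1 (adjusted p = 0.0564), morula control 8 (0.0511) or blastocyst control 1 (0.0517), nor Ddx56 without morula control 8 (adjusted p = 0.0518) or blastocyst control 6 (0.0532). With no filter neither was called (adjusted p = 0.0859 for Ddx24 and 0.0552 for Ddx56), and with FPKM as deposited Ddx24 was not (adjusted p = 0.0636). Ddx47, with a log2 fold change of -0.16, and Ddx50 (0.40) were not called.

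Outside ribosome biogenesis, Ddx3x was at 82.2, 71.6, 78.2 and 64.9 in morulae and 27.3, 28.4, 32.2 and 30.5 in blastocysts (log2 fold change -1.38, adjusted p = 3.84e-06), and Ddx4 was under 0.5 in all blastocyst controls (-1.61). Ddx4, Dhx38 and Dhx57 passed the filter through the morulae in the same way. The members that rose were Dhx16, at 105, 96.6, 80.9 and 141 in blastocysts (1.26), and Ddx59, a helicase linked to cilia. Ddx59 was at 2.83, 2.11, 2.42 and 2.22 in morulae and 10.3, 12.1, 11.7 and 8.46 in blastocysts (1.70, adjusted p = 4.03e-06). Of its exon bases, 5.18% overlap another gene. Of the splicing helicases 5 of 11 fell (45.5%, against 28.8% of all genes tested). Among them were Ddx41 (-1.01), Dhx8 (-0.80) and Dhx15 (-0.79), which takes used spliceosomes apart. Dhx15 was not called without morula control 7 (adjusted p = 0.0604), morula control 8 (0.0559), blastocyst control 1 (0.0525) or blastocyst control 6 (0.0674), nor with no filter (adjusted p = 0.0899). In transcription and RNP assembly 3 of 5 fell (60%), namely Ddx5 (-0.87), Ddx20 (-0.86) and Dhx9 (-0.66). Dhx9 was not called without morula control 2 (adjusted p = 0.0502), morula control 7 (0.0519) or blastocyst control 5 (0.0573), nor with no filter (adjusted p = 0.0606).

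Other falls in this count also depended on the setting. Ddx19b of mRNA export (-0.38, 0.0417) was called in 0 of 8 fits with 1 library left out, that is without morula control 1 (adjusted p = 0.0547), morula control 2 (0.0537), morula control 7 (0.0624), morula control 8 (0.108), blastocyst control 1 (0.0776), blastocyst control 4 (0.0813), blastocyst control 5 (0.0587) or blastocyst control 6 (0.0938), and not with FPKM as deposited (adjusted p = 0.120). Dhx38 of splicing (-0.47, 0.0353) was not called without morula control 1 (adjusted p = 0.0867), morula control 2 (0.0841), blastocyst control 1 (0.0783), blastocyst control 4 (0.0726) or blastocyst control 6 (0.0532). It was also lost with no filter (adjusted p = 0.0902) and with FPKM as deposited (adjusted p = 0.0860). Dhx37 of ribosome biogenesis (-0.39, 0.0235) was lost without blastocyst control 5 (adjusted p = 0.0640) and with FPKM as deposited (adjusted p = 0.0568). These names, like that of Dhx57, were chosen after the values were seen.

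In 2-cell embryos, no helicase was called between KD and control. Of 47 members tested with limma, 0 had an adjusted p under 0.05 and 2 an unadjusted p under 0.05, with a smallest adjusted p of 0.828. The share of all 12160 genes called was 0% as well, with 701 at an unadjusted p under 0.05. Dhx15 was at 26.6, 23.4, 13.6 and 15.6 in controls and 26.2, 32.9 and 28.3 in KD libraries (log2 fold change 0.64, SE 0.25). The lowest controls were libraries 4 and 5, and control 1 lay within the KD range. Dhx9 was at 26.4, 27.2, 20.4 and 19.5 and 18.3, 14.4 and 15.0 (-0.46), with no overlap. Ddx47 (-0.44), Ddx41 (-0.41) and Ddx18 (-0.38) had the other large estimates. For Ddx18 the controls were 36.5, 36.0, 71.0 and 63.9 and the KD libraries 33.6, 36.8 and 37.7, so that controls 1 and 2 lay within the KD range and controls 4 and 5 well above it. Without controls 4 and 5, a comparison chosen after the values were seen, 0 members were called as well.

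In KD morulae few helicases were called. Of 46 members tested, 2 were higher (4.35%) and 2 lower (4.35%), where 4.22% of the 10989 genes tested were higher and 9.05% lower. None was a DEG, against 1% and 2.59% of all genes, and 21 members had an unadjusted p under 0.05 in limma (45.7%, against 30.5% of all genes). The share called higher was near that of all genes. Estimates were negative for 29 members and positive for 17, with a median of -0.18 against 0.02 for all genes. With FPKM as deposited, where the median of all genes moved from 0.015 to -0.085, 2 members were called higher and 12 lower of 46, where 2.56% of all genes were higher and 14.1% lower, so the number lower rests on the scaling. The KD comparisons share their control libraries with the comparisons between stages.

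Dhx16 was higher in KD morulae, at 60.2, 72.8 and 77 against 45.7, 37.5, 43.5 and 35.1 in controls. All KD values lay above all control values (log2 fold change 0.90, SE 0.15, adjusted p = 0.00714). Its call stood with each library left out in turn. Dhx9 was at 12.1, 13.1 and 8.26 against 5.97, 7.05, 7.40 and 5.02, again without overlap (log2 fold change 0.82, SE 0.19, adjusted p = 0.0208). Dhx9 was not called without control 8 (adjusted p = 0.0536), KD 1 (0.0763) or KD 2 (0.0968), nor with no filter (adjusted p = 0.0873). Ddx19a was lower, at 1.28, 1.16 and 1.53 against 2.71, 2.43, 3.01 and 2.45 (log2 fold change -0.57, adjusted p = 0.0347), and so was Ddx4, at 1.34, 2.01 and 1.16 against 3.36, 3.02, 2.93 and 2.59 (-0.60, 0.0374). The groups of neither gene overlapped. Ddx19a was not called without control 2 (adjusted p = 0.0592), control 7 (0.0872), control 8 (0.0752), KD 1 (0.114) or KD 2 (0.134), nor Ddx4 without control 2 (adjusted p = 0.0764), control 7 (0.0808), control 8 (0.0710), KD 1 (0.132) or KD 6 (0.104). Neither was called with the replicate block (adjusted p = 0.135 for Ddx19a and 0.171 for Ddx4), under which 3 other members were called lower, or with no filter (adjusted p = 0.0743 and 0.0916). The number called higher fell to 1 without control 8, KD 1 or KD 2. The number called lower was 5 without control 1 or KD 6, 1 without control 2, control 8 or KD 2, and 0 without control 7 or KD 1.

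Other large estimates in KD morulae were not called. Ddx50 was at 2.04, 1.63 and 4.87 against 5.21, 4.49, 5.13 and 6.78 (-0.72, adjusted p = 0.119), with KD library 6 inside the control range. Dhx35, which sits in the catalytic spliceosome, was at 0.199, 0.284 and 0.809 against 1.29, 1.56, 0.820 and 1.47 (-0.63, 0.0636). Ribosome biogenesis had 0 of 16 called and 5 at an unadjusted p under 0.05 in limma, with a median of -0.22. Splicing had 1 of 11 called (median 0.11), export, translation and decay 1 of 9 (-0.03), and transcription and RNP assembly 1 of 5 (-0.18). Of all genes tested, 13.3% were called. Both mitochondrial members had an unadjusted p under 0.05 and neither was called (median -0.51). The 7 inner cell mass markers, led by Nanog, summed to 96.0, 97.2 and 157 FPKM in KD morulae against 199, 203, 239 and 256 in controls. Of 5 tested, 1 was lower (20%, against 9.05% of all genes), and 2 had positive estimates. Nanog itself was at 17.9, 11.6 and 32.5 against 62.9, 103, 113 and 143. The part of these markers in the results on the helicases was not tested. Since whole embryos were measured, fewer cells of a type and less RNA per cell cannot be told apart.

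In KD blastocysts more helicases were called, mostly higher. The paper reports that the knockdown lowered the share of embryos that formed blastocysts, with no effect on reaching the morula stage. How embryos were chosen for these libraries is not stated. Selection among KD embryos and the effect of the knockdown therefore cannot be told apart at this stage. Of 43 members tested, 9 were higher (20.9%) and 2 lower (4.65%), where 16.7% of the 11828 genes tested were higher and 19.8% lower. The DEGs were 1 and 1, against 6.1% and 7.76% of all genes. The share called higher was thus near that of all genes, and the share called lower was smaller. Estimates were positive for 32 members and negative for 11, with a median of 0.26 against 0.00 for all genes. With no filter 6 members were called higher, 5 of them among the 9. Each of the 9 had its highest KD value, in FPKM as deposited, in KD library 5. Each also had its lowest control value in control library 1, so the 9 calls are not independent. Without control 1 and KD 5 together, a fit chosen after the values were seen, 7 members were called higher.

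Ribosome biogenesis had 4 of 15 tested higher (26.7%, against 16.7% of all genes) and 0 lower (19.8% of all genes), with a median of 0.39. At an unadjusted p under 0.05 in limma stood 7 of the 15 (46.7%), near the 46% of all genes. Ddx21 was at 19.8, 17.1, 27.9 and 19.2 in KD blastocysts against 6.52, 7.58, 9.14 and 9.24 in controls. The lowest KD value lay well above the highest control (mean 21.0 ± 4.74 (SD, n = 4) against 8.12 ± 1.31 (SD, n = 4); log2 fold change 1.27, SE 0.16, adjusted p = 1.52e-04). Ddx27, which acts in the processing of ribosomal RNA precursors, was at 13.3, 11.2, 20.8 and 17.6 against 5.09, 6.35, 10.2 and 8.68, also without overlap (log2 fold change 0.97, SE 0.20, adjusted p = 0.00312). Ddx49 was at 19.8, 18.3, 24.7 and 19.1 against 9.18, 13.2, 15.2 and 13.8 (0.65, 0.00711), where reads of Homer3 cannot be told apart in the shared exons. Ddx31 was at 2.21, 2.94, 5.41 and 3.03 against 0.938, 1.18, 2.57 and 1.72 (0.76, 0.0179), with KD library 1 inside the control range. Ddx31 was not called without control 1 (adjusted p = 0.0519) or control 4 (0.0581), nor with no filter (adjusted p = 0.0727). Without control 1 and KD 5 together it was not called either (log2 fold change 0.50, adjusted p = 0.0973). Ddx24 (0.75, 0.0609) and Ddx55 (0.46, 0.0757) were not called, and Ddx50 had a negative estimate (-0.51, 0.171).

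Of 11 splicing helicases, 2 were higher (18.2%, near the 16.7% of all genes tested), with a median of 0.27. Dhx8 was at 5.99, 6.32, 9.58 and 7.47 against 1.91, 4.59, 3.58 and 3.31, without overlap (log2 fold change 0.97, SE 0.20, adjusted p = 0.00256). Dhx35 was at 1.76, 1.71, 2.75 and 1.5 against 0.239, 1.67, 0.708 and 0.883 (0.69, 0.0248), and its control library 4 lay among the KD values. With 1 control and 4 KD libraries at 1 FPKM or more, it passed the filter through the KD blastocysts, so it lends no support to the counts. It was not called without control 1 (adjusted p = 0.0735), control 5 (0.0549) or KD 5 (0.0641), nor with no filter (adjusted p = 0.10). Without control 1 and KD 5 together it was not called either (log2 fold change 0.44, adjusted p = 0.130). Dhx16, called in KD morulae, was at 166, 125, 112 and 114 against 105, 96.6, 80.9 and 141 and was not called here (0.30, 0.312).

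In transcription and RNP assembly, 2 of 5 were higher (40%, against 16.7% of all genes tested), with a median of 0.40. Ddx20 was at 27.5, 21.3, 30.6 and 27.3 against 9.58, 16.3, 22.7 and 17.7 (0.71, 0.0152), and KD library 4 lay below control library 5. With no filter it was not called (adjusted p = 0.0570). Ddx5 was at 277, 272, 334 and 293 against 140, 224, 264 and 212 without overlap (0.52, 0.0256). Ddx5 was not called without control 1 (adjusted p = 0.0595), control 4 (0.0501), control 6 (0.0610) or KD 6 (0.0589), nor with no filter (adjusted p = 0.0542). Dhx9 was not called (0.40, 0.213).

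Export, translation and decay had 1 of 8 higher and 1 lower (12.5% each, against 16.7% and 19.8% of all genes tested), with a median of -0.15. Ddx3x was at 49.1, 47.0, 72.1 and 46.0 against 27.3, 28.4, 32.2 and 30.5, every KD value above every control (log2 fold change 0.82, SE 0.15, adjusted p = 0.00164). Its Y-linked relative Ddx3y was at 4.30, 6.46, 4.05 and 13.8 against 7.96, 13.9, 5.71 and 12.4 and was not called (-0.50, 0.291). Dhx36 was lower, at 1.19, 1.55, 1.72 and 1.47 against 4.17, 4.19, 3.71 and 4.28. Its groups lay far apart (mean 1.48 ± 0.221 (SD, n = 4) against 4.09 ± 0.258 (SD, n = 4); log2 fold change -1.03, SE 0.16, adjusted p = 4.31e-04). The other member called lower was Ddx59, at 5.33, 5.68, 5.57 and 6.66 against 10.3, 12.1, 11.7 and 8.46 (-0.76, 0.00489). Neither of the 2 mitochondrial members was called, with 0 at an unadjusted p under 0.05 in limma.

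**Figure D2:**
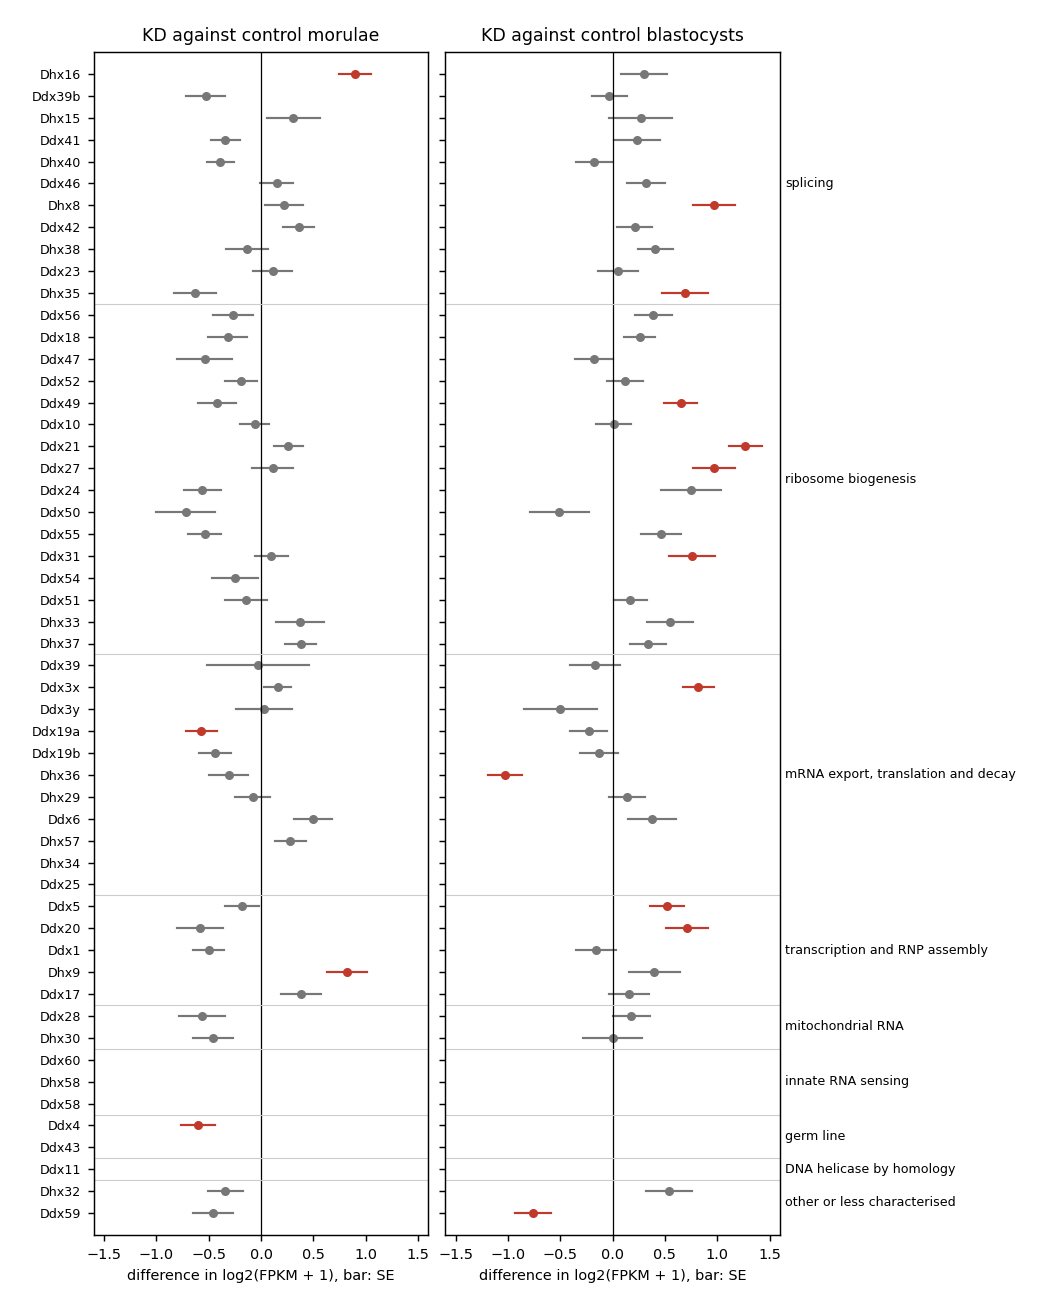
Difference in log2(FPKM + 1) between KD and control (horizontal axis, points, with bars of 1 SE) for each helicase (vertical axis, grouped by role), in morulae (3 KD and 4 control libraries) and blastocysts (4 and 4). Red marks an adjusted p under 0.05 in limma, grey a higher one, and members with no point were below the filter; Ddx21 at 1.27 and Dhx36 at -1.03 lie farthest out in blastocysts.

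Trophectoderm markers moved with the same samples. The 8 genes summed to 772, 992, 904 and 749 FPKM in KD blastocysts, against the control sums given above. Of the 8, 3 were lower (Dppa1 at -2.56, Elf5 at -1.24 and Krt18 at -1.02) and Tfap2c higher (0.96). Among all genes tested, 19.8% were lower and 16.7% higher. None of the 8 was at 0 in a blastocyst library. The inner cell mass markers summed to 152, 169, 299 and 213 against 210, 231, 298 and 183, with 1 of 5 tested higher and 1 lower. The 6 primitive endoderm markers, led by Dab2, summed to 165, 135, 184 and 167 against 110, 140, 178 and 135, with 0 of 2 tested called and 0 at an unadjusted p under 0.05 in limma. The 2-cell markers summed to 3.08, 14.0, 3.30 and 9.55 against 0.787, 0.964, 0.291 and 0.716, and Zfp352, the 1 tested, was higher (1.57). With all control sums under 1, Zfp352 passed the filter through the KD blastocysts alone, so no conclusion is drawn from its call. These named markers were chosen after their values were seen. The part of the cell types in the results on the helicases was not tested.

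Whether the effect of the knockdown differed between blastocysts and morulae was tested as an interaction in limma. The limit given above for the KD blastocysts applies here too. Of 47 members tested, 8 had a higher effect in blastocysts (17%) and 1 a lower one (2.13%), where 5.43% of the 12727 genes tested were higher and 6.3% lower. The median was 0.30 against -0.01. With FPKM as deposited, where the median of all genes moved from -0.008 to 0.111, 10 members were higher and 0 lower, where 7.02% of all genes were higher and 5.52% lower. In ribosome biogenesis 4 of 16 were higher, namely Ddx24 (1.27, adjusted p = 0.0368), Ddx49 (1.03, 0.00774), Ddx21 (0.96, 0.00547) and Ddx55 (0.96, 0.0158). Ddx24 and Ddx55 were called in the interaction and at neither stage alone. Ddx24 was at 9.98, 7.70 and 8.20 in KD morulae against 19.3, 10.9, 13.1 and 14.9, and at 16.4, 9.08, 23.5 and 13.2 in KD blastocysts against 4.32, 8.67, 14.7 and 8.81. Ddx55 was at 5.09, 5.18 and 6.49 against 9.40, 8.81, 9.51 and 9.40 and then 6.19, 6.39, 6.04 and 6.17 against 2.68, 4.16, 5.93 and 4.90.

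Dhx35 (1.31, SE 0.31, adjusted p = 0.0107) had the largest estimate, followed by Ddx24 and Ddx20 (1.25, 0.0151). Dhx35 reached 1 FPKM in morulae in 3 controls alone, and in blastocysts in 4 KD libraries and 1 control, so its place here also follows in part from the filter. In KD morulae Ddx20 was at 13.6, 14.5 and 24.1 against 27.5, 26.1, 26.2 and 32.2, below the controls, and in KD blastocysts above most of them. Ddx4 (0.95, 0.0129) was at 1.29, 0.515, 0.580 and 0.645 in KD blastocysts against 0.274, 0.395, 0.490 and 0.235, all low values. It did not pass the filter in blastocysts alone and entered this fit with its morula values, so it lends no support to the count. Ddx3x was higher (0.62, 0.0424), and Dhx36 was the 1 member with a lower effect (-0.74, 0.0450). Of these, Ddx20 was not called without morula KD 1 (adjusted p = 0.0524). Ddx24 was not called without morula control 1 (adjusted p = 0.0686), morula control 8 (0.0642), morula KD 1 (0.0587), morula KD 2 (0.0860), morula KD 6 (0.0669), blastocyst control 1 (0.0671), blastocyst control 4 (0.0601), blastocyst control 6 (0.0554), blastocyst KD 1 (0.0674) or blastocyst KD 5 (0.0678). For Ddx3x the call was lost without morula control 1 (adjusted p = 0.0592), morula control 2 (0.0669), morula control 7 (0.0787), morula control 8 (0.0549), morula KD 1 (0.0810), morula KD 2 (0.0620), morula KD 6 (0.0949), blastocyst control 1 (0.0530), blastocyst control 4 (0.0807), blastocyst control 6 (0.0666), blastocyst KD 1 (0.0585) or blastocyst KD 5 (0.0604). For Dhx36 it was lost without morula control 2 (adjusted p = 0.0759), morula control 8 (0.0819), morula KD 2 (0.121), morula KD 6 (0.0880), blastocyst control 1 (0.0830), blastocyst control 4 (0.0702), blastocyst control 6 (0.0700), blastocyst KD 1 (0.0753), blastocyst KD 5 (0.0564) or blastocyst KD 6 (0.0715), which left 0 members with a lower effect in those fits. The number with a higher effect fell to 5 without KD morula library 1. With the replicate block it was 4, and those not called then were Ddx24 (adjusted p = 0.0714), Ddx55 (0.0763), Ddx4 (0.0868), Ddx3x (0.191) and, for the lower effect, Dhx36 (0.230). With no filter Ddx20 (adjusted p = 0.0596), Ddx24 (0.129) and Dhx36 (0.0693) were not called, and with FPKM as deposited Dhx36 was not (adjusted p = 0.0972).

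**Figure D3:**
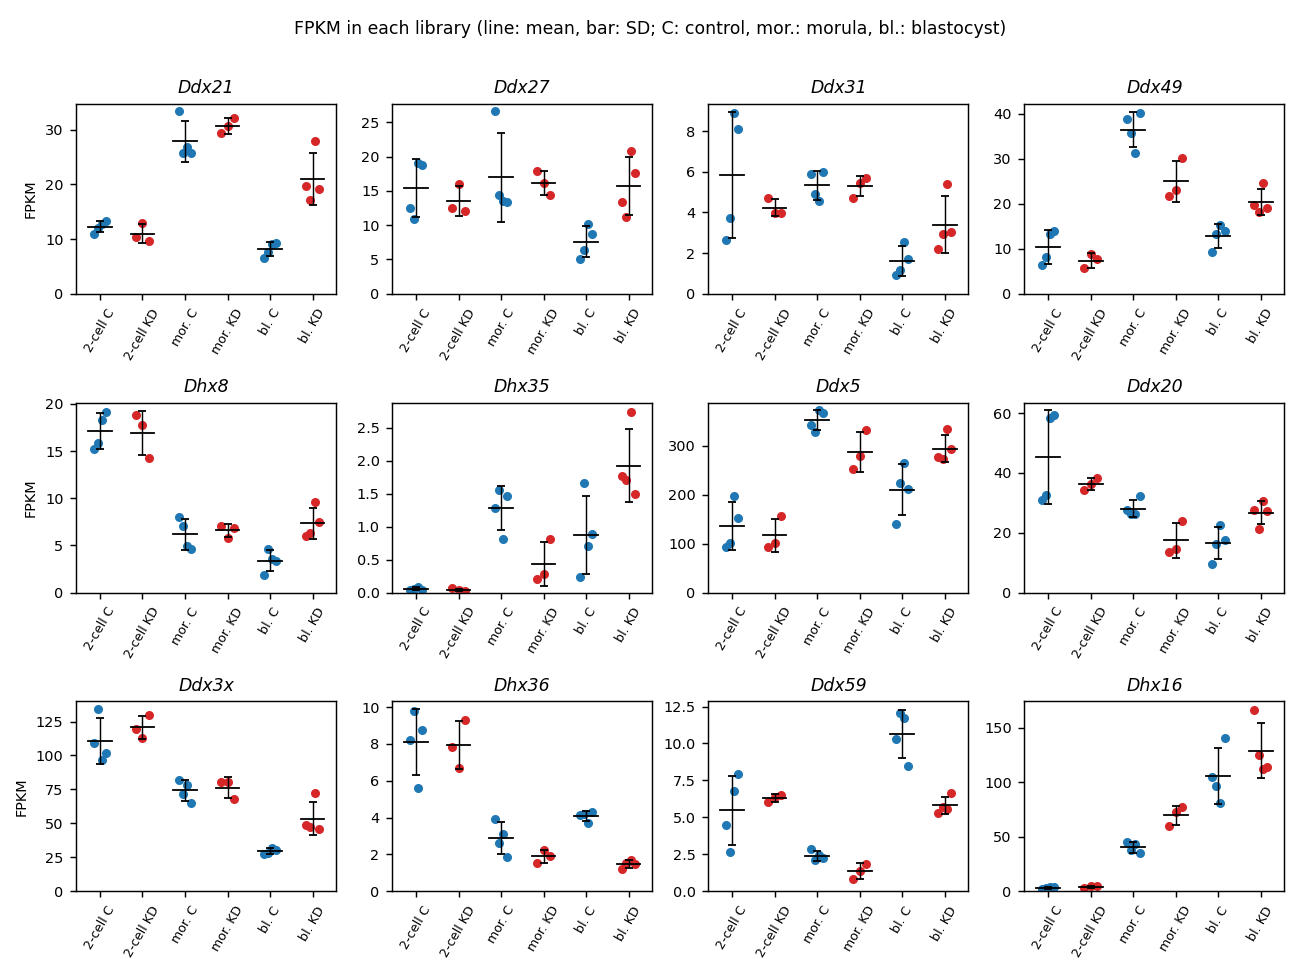
FPKM (vertical axes) of 12 helicases in each library (points), by stage and treatment (horizontal axes). Ddx21 lies between 17.1 and 27.9 in KD blastocysts and between 6.52 and 9.24 in controls, and Dhx16 is higher in KD than in control morulae.

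Genes that work with these helicases were described in the same way. Of 20 other RNA helicases, 12 were tested in blastocysts, with 2 higher (16.7%, the same as the share of all genes) and 0 lower (19.8% of all genes) and a median of 0.02. Eif4a3, of the exon junction complex, was higher (0.74, adjusted p = 0.00240), as was Upf1, of nonsense-mediated decay (0.59), a name chosen after the values were seen. Eif4a1 (0.34, 0.124) and Eif4a2 (0.04, 0.869), the translation initiation helicases, were not called. Of 25 cofactors of helicases, 23 were tested in blastocysts, with 6 higher (26.1%), 1 lower (4.35%) and a median of 0.36. Gemin5, which binds snRNAs in the SMN complex with Ddx20, was the 1 DEG (1.13, 0.00103). In morulae limma called 0 of 12 other helicases and 0 of 24 cofactors, with 2 (16.7%) and 3 (12.5%) at an unadjusted p under 0.05, where 13.3% of all genes were called and 30.5% stood at that level. In 2-cell embryos it called 0 of 15 and 0 of 24, with 0 and 1 at that level (5.76% of all genes, of which 0 were called). From control morulae to control blastocysts, 0 of 24 cofactors rose and 13 fell (54.2%, median -0.54), near the 54.3% of the helicases. Among 13 other RNA helicases, 2 rose (15.4%) and 4 fell (30.8%), where 27.6% of all genes rose and 28.8% fell. The interaction called 0 of 14 other helicases and 1 of 24 cofactors (11.7% of all genes).

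Promoter sequences are shown for 3 members of ribosome biogenesis that were higher together in KD blastocysts, Ddx21, Ddx27 and Ddx49, and for Dhx36, which was lower, for contrast. These 4 were chosen with their values known. RefSeq promoters (build GRCm38.p6, 250 bases before to 50 after the gene start) were found for 47 of the 53 members. They are Ddx21 at chr10:62602249-62602548 (minus strand), Ddx27 at chr2:167015063-167015362 (plus strand), Ddx49 at chr8:70302422-70302721 (minus strand) and Dhx36 at chr3:62506939-62507238 (minus strand). Capitals mark matches on either strand to 6 motifs. These were the E-box CACGTG, the box CCAAT, the GC box GGGCGG, the ETS motif CCGGAAGT, the palindromic motif of NRF1 and the TATA box TATAAA.
Ddx21: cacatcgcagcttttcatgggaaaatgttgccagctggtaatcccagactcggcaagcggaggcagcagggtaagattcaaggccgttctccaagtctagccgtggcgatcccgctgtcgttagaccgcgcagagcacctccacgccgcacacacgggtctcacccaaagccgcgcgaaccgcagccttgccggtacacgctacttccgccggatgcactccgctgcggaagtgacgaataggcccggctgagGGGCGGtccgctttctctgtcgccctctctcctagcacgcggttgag
Ddx27: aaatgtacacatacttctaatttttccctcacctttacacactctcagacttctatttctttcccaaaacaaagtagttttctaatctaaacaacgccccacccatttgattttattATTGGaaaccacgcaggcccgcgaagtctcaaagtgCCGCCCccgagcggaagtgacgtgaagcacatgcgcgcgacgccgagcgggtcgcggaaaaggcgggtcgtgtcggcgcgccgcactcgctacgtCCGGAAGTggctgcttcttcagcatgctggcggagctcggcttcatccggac
Ddx49: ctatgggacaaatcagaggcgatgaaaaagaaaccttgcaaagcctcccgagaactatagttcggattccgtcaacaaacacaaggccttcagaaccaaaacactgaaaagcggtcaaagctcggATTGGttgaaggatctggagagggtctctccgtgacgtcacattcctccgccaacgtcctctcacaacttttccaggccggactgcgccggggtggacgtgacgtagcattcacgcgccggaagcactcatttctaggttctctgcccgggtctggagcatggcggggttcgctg
Dhx36: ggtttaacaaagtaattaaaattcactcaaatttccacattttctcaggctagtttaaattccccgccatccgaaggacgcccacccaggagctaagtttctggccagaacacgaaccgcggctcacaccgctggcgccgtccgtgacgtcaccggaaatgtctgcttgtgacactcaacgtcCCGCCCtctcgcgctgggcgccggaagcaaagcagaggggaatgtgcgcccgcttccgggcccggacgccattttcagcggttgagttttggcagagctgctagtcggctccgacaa
Ddx21 and Dhx36 hold 1 GC box each, Ddx49 holds 1 CCAAT, and Ddx27 holds 1 each of CCAAT, the GC box and the ETS motif. Over the 27025 promoters of the table, 7.24% held the E-box, 37.9% CCAAT, 35.9% the GC box, 4% the ETS motif, 0.977% the NRF1 motif and 14.2% TATAAA. Of the 47 helicase promoters, 5, 23, 30, 10, 2 and 2 held them, in the same order. A match describes the letters and is no evidence of binding.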

How the data were processed

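The authors aligned reads to mm10 with STAR and deposited FPKM per gene from StringTie 2.1.4 for 22 libraries. With R 4.3.3 and limma 3.58.1, FPKM were divided by median-of-ratios factors centred to a geometric mean of 1. This centring was set after first results had been seen, and uncentred factors changed 0 calls of members. A gene was kept where 3 or more libraries of a fit had an FPKM of 1 or more, and log2(FPKM + 1) was fitted with lmFit and eBayes with a trend. P-values were adjusted by Benjamini-Hochberg over all genes tested. Named were members called in KD morulae, KD blastocysts or the interaction, the 5 largest estimates per comparison, and the 5 highest and 5 lowest detected members. Roles, other RNA helicases, cofactors and markers were fixed lists, described without a list test. Members and lists were chosen with earlier results of these data known. Alternatives were the pseudocount, filter, scaling, blocks and libraries left out. Sequences were read and figures drawn with Python 3.11.15, pandas 2.3.3, numpy 2.4.6 and matplotlib 3.10.9. Reads per library could not be recovered: only 13.2% to 29.3% of low values of single-exon genes lay on whole steps, within a tolerance of 0.03.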

Additional observations from a re-analysis of the deposited data

Results flagged for a closer look

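In 136 groups of 4 libraries, 5 held a value far from the others, and chance alone does so in about 1 in 20 groups. Ddx21 was at 33.4 FPKM in control morula library 1 against 25.7 to 26.8 in the others, and Ddx27 at 26.6 in the same library against 13.4 to 14.3. Ddx3x was at 72.1 in KD blastocyst library 5 against 46.0 to 49.1, and Ddx4 at 1.29 in KD blastocyst library 1 against 0.515 to 0.645. Ddx55 was at 8.81 in control morula library 2 against 9.40 to 9.51. By the interaction in limma, the effect of the knockdown differed between blastocysts and morulae for 9 of 47 members (19.1%, against 11.7% of all genes tested). With the replicate block, Ddx24, Ddx55, Ddx4, Ddx3x and Dhx36 were not called. Ddx3x, Ddx24 and Dhx36 were called in 3, 5 and 5 of the 15 fits with 1 library left out. The differences (log2, blastocysts minus morulae) were 1.31 for Dhx35, 1.27 for Ddx24, 1.25 for Ddx20, 1.03 for Ddx49, 0.96 for Ddx21, 0.96 for Ddx55, 0.95 for Ddx4, 0.62 for Ddx3x and -0.74 for Dhx36. Ddx4 did not pass the filter in blastocysts alone, and Dhx35 passed it at each stage through the group where it was higher.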

How the results depend on the processing

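Of 83 calls of single members, 60 held under every alternative that tested the gene, 23 lost the threshold under at least 1, and 0 turned direction. In KD morulae, members called higher and lower numbered 1 and 0 with no filter, where more genes are tested, and 1 to 2 and 0 to 5 with 1 library left out. Members called lower numbered 12 with FPKM as deposited, 3 with the replicate block (0 of them among the 2 called without it) and 4 with low against high replicate numbers as a batch. In the interaction, the numbers higher and lower were 4 and 0 with the replicate block, 12 and 1 with low against high numbers as a batch, 5 to 11 and 0 to 1 with 1 library left out, and 0 lower with no filter or with FPKM as deposited. The cause was not tested. Samples of a replicate block share only a number, and whether they share a source was not settled. Deviations from the group means correlated at 0.015 to 0.214 in same-number pairs of 2-cell embryos (other pairs -0.237 to 0.205), 0.094 to 0.181 in morulae (-0.278 to 0.346) and -0.11 to 0.353 in blastocysts (-0.381 to 0.401). In KD blastocysts 12 members were higher and 2 lower with the replicate block, 10 and 2 with that batch, 6 to 11 and 2 with 1 library left out, and 6 higher with no filter, 5 of them among the 9. No paired analysis was possible from morulae to blastocysts, because the controls share only number 1. Chosen after seeing the data were the range of replicate numbers, the fits without 2-cell controls 4 and 5, uncentred factors (0 calls of members changed) and the fit without control blastocyst 1 and KD blastocyst 5, with 7 higher and 2 lower. Leaving out 2-cell controls 4 and 5 moved the median of all genes from 2-cell embryos to morulae from 0.097 to 0.597, with 10963 genes tested in place of 13655, because genes present in 2-cell embryos alone can then no longer reach 3 libraries. The unknown depth limits what can be said of members near 1 FPKM.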
